A study of Mus musculus with 4 samples.

Results

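The 10 genes described here, Fos, Fosb, Jun, Junb, Jund, Egr1, Ier2, Atf3, Dusp1 and Zfp36, make up a list of immediate early and dissociation stress genes. They were found by symbol among the 28692 genes of a single-cell RNA sequencing matrix from mouse testis. That each member responds as an immediate early gene in these cells was not tested. All 10 symbols were present, each once. The cells came from C57BL/6 mice at postnatal day 63, in 4 samples. Of these, 2 are labelled Phf7 f/f and 2 are labelled Phf7 tKO, with the genotype Stra8-Cre:Phf7 f/f, so all 4 carry floxed Phf7 alleles. Stra8-Cre acts in the male germ line, and somatic cells are not its target. Cells were freed by enzymes (trypsin, DNase I and collagenase A), and red blood cells were lysed. It is not stated whether each sample is a separate animal. Barcode suffixes from 1 to 4 mark the libraries, and no source says which genotype a suffix holds. The genotypes were therefore not compared, the matrix counts as 1 pooled sample without any p-value, and each level is given for the pool and by suffix. Suffixes are not replicates of a group.

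Immediate early genes are transcribed within minutes of a growth signal or an insult such as tissue digestion, without new protein synthesis, from factors already present in the cell. FOS and FOSB pair with JUN, JUNB or JUND to form the AP-1 transcription factor; EGR1 is a zinc finger transcription factor and ATF3 a stress-induced relative of the AP-1 proteins. IER2 is a short-lived nuclear protein. DUSP1, a phosphatase of MAP kinases, and ZFP36 (tristetraprolin), which binds AU-rich mRNA and promotes its decay, act as feedback on the same response. In the adult testis, germ cells and their supporting Sertoli cells lie inside the seminiferous tubule, peritubular myoid cells form its wall, and Leydig cells, macrophages, vessels and stromal cells lie between the tubules.

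The sequences before the RefSeq start are shown for the members whose promoter window holds a searched motif, with Jun as a member whose window holds none. Of the 10 genes, 8 were in the RefSeq promoter table for GRCm38.p6. The 250 bases before each start were searched on both strands for the CArG box bound by serum response factor, the cyclic AMP response element TGACGTCA, the AP-1 site TGANTCA and the TATA element TATAAA. These motifs do not overlap in the windows shown. Capitals mark the match.
Fos, chr12:85473640-85473889, plus strand: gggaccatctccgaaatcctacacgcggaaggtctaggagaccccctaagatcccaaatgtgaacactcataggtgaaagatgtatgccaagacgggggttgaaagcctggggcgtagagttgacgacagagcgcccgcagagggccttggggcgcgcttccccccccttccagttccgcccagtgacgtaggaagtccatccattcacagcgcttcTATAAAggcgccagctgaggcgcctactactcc
Jun, chr4:95052223-95052472, minus strand: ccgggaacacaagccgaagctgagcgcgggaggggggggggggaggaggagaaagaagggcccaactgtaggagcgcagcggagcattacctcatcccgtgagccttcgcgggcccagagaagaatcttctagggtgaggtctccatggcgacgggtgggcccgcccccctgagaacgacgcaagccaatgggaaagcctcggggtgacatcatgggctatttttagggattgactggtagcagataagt
Dusp1, chr17:26508597-26508626, minus strand: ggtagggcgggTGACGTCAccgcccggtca
Zfp36, chr7:28379267-28379296, minus strand: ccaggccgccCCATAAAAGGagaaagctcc

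The TATA element of Fos begins 33 bases before the start, the TGACGTCA of Dusp1 143 bases before it, and the CArG box of Zfp36 58 bases before it. These starts are those of RefSeq; on GRCm38 both the Dusp1 and the Zfp36 stretch lie inside the annotated span of their own gene, and their 250-base windows overlap an annotated untranslated region of it. Among all 32851 promoters of that length in the table, 12.4% held TATAAA, 1.55% held TGACGTCA, 1.47% held a CArG box and 6.75% held TGANTCA. A match is only a run of letters, and only exact matches were counted. A window without a match says nothing about binding in that window or elsewhere. On GRCm38, Fos spans bases 85473890 to 85477273 of chromosome 12 and overlaps no other annotated gene. Jun, on chromosome 4 from 95049034 to 95052222, is a gene of 1 exon. Levels are given as CPM, the UMI of a gene scaled by all UMI of the cell class. The antisense neighbour of Jun, Junos, had at most 7.39 CPM in any class, on 1 UMI in peritubular myoid-like cells. In early spermatocyte-like, late spermatocyte-like and round spermatid-like cells Junos had 0.999, 3.9 and 2.37 CPM, where Jun had 11, 14.6 and 1.06 CPM. Whether any reads of Junos were counted as Jun was not tested. Junb shares its 3' end with Prdx2 on the other strand, and the sources used here do not say whether the counting used strand. Prdx2 had 809.6 CPM in Leydig-like and 459 CPM in Sertoli-like cells, where Junb had 708 and 14.7 CPM. Whether any reads of Prdx2 were counted as Junb was not tested. Jund overlaps the antisense gene Gm11175, which had 0.0124 CPM at most. Dusp1 overlaps Ergic1 and 2 pseudogenes, and Ergic1 had 73.9 CPM at most. Fosb and Zfp36 lie on chromosome 7, Ier2 on chromosome 8, Egr1 on chromosome 18 and Atf3 on chromosome 1; Zfp36 overlaps the antisense gene Gm44710 and Atf3 the small RNA gene Gm24748.

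After cells with under 500 genes or over 10% mitochondrial UMI were left out, 29964 cells remained, and the 4 suffixes held 7659, 6957, 7408 and 7940 of them. In all, 190744950 UMI (counted transcript molecules) were deposited, between 44447735 and 50353091 per suffix. Clustering without the 10 genes gave 12 marker-named classes holding 23600 cells, while 21.2% of cells stayed unnamed. The ending "-like" is kept for all names, since no other evidence than markers stands behind them. The germ line gave 658 spermatogonia-like, 1069 early and 1212 late spermatocyte-like, 6291 round and 9364 elongating spermatid-like cells. Early spermatocyte-like cells held 3274 CPM of late spermatocyte markers beside 4024 CPM of their own. Hspa2, a late marker, was at 1414 CPM in them and 1314 CPM in late spermatocyte-like cells. Spermatogonia-like cells held 1470 CPM of early spermatocyte markers. Dmc1, an early marker, was at 59.4 CPM in spermatogonia-like and 25 CPM in early spermatocyte-like cells. The somatic side gave 3720 Sertoli-like, 612 Leydig-like, 314 macrophage-like, 235 interstitial mesenchymal-like, 48 endothelial-like, 39 peritubular myoid-like and 38 lymphocyte-like cells. The mesenchymal-like class was defined by Dcn (decorin, 10671 CPM) and held Insl3, a Leydig cell hormone, at 18 CPM and C1qa, a macrophage gene, at 0. Sertoli-like cells were shallow, with a median of 924 UMI against 2384 in mesenchymal-like and 5450 in Leydig-like cells, and carried 40604 CPM of elongating spermatid markers beside 10316 CPM of their own. Barcode sequences shared by more than 1 suffix numbered 497.

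Each of the 10 genes was at its highest in a class of cells from between the tubules, and their sum was lowest in spermatocyte-like cells. Summed, they made up 1.88% of all UMI in interstitial mesenchymal-like cells (18772 CPM, exact Poisson interval at 95% 18413 to 19136). The sum was 11693 CPM in endothelial-like, 8825 in macrophage-like, 4371 in lymphocyte-like, 4261 in Leydig-like and 3864 in peritubular myoid-like cells. Inside the tubule it was 339 CPM in spermatogonia-like and 121 CPM in Sertoli-like cells. The lowest sums were those of the early and late spermatocyte-like cells, 33.3 and 28.8 CPM, with 95.5 and 98.6 CPM in round and elongating spermatid-like cells. With each class pooled, every member was higher in each of the 6 interstitial and wall classes than in any germ class or in Sertoli-like cells. Single clusters did not all keep this order. In a Leydig-like cluster of 249 cells Jund was at 65.6 CPM, against 242 CPM in spermatogonia-like cells. A lymphocyte-like cluster of 27 cells had 0 UMI of Egr1. All intervals cover counting error only.

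**Figure D1:**
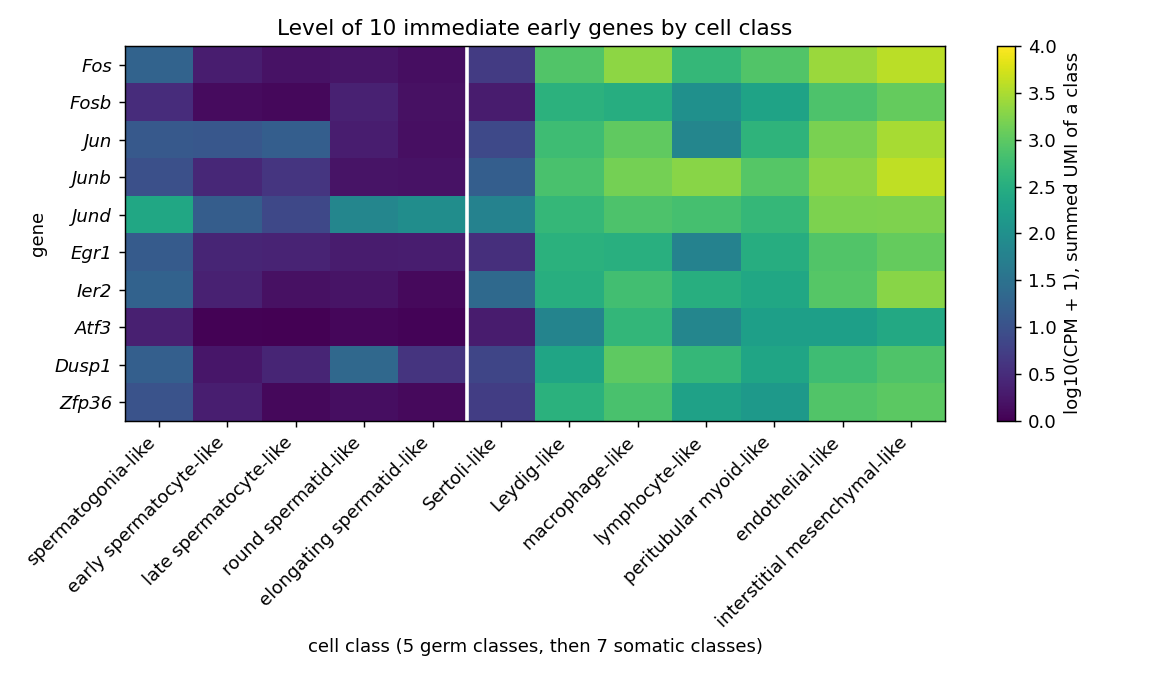
Heat map of the level of each gene (rows) in each cell class (columns), as log10 of CPM plus 1 from UMI summed over the class; the white line separates 5 germ classes from 7 somatic classes. The 6 columns at the right are high for all genes, and Sertoli-like cells are not. In spermatids Jund has the highest level, followed by Dusp1.

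Fos, the founding AP-1 gene, was highest in mesenchymal-like cells. Its level there was 2944, 3868, 4141 and 3938 CPM in suffixes 1 to 4, and 3817 CPM pooled (3656 to 3983). The endothelial-like level of Fos was 2481 CPM, the macrophage-like level 2100 CPM, the Leydig-like level 832 CPM, the peritubular myoid-like level 828 CPM and the lymphocyte-like level 467 CPM. The order of these classes for Fos held within intervals except between Leydig-like and myoid-like cells, whose intervals overlapped. Spermatogonia-like cells followed at 17.7 CPM (13.4 to 23) and Sertoli-like cells at 4 CPM (2.29 to 6.49).

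Fosb, the closest relative of Fos in the set, had 971, 1347, 1186 and 1033 CPM in the 4 suffixes of mesenchymal-like cells. Endothelial-like cells had 759 CPM of it, Leydig-like cells 373 and macrophage-like cells 305. In germ cells Fosb had at most 2.21 CPM. Round spermatid-like cells held 45 UMI of it over 6291 cells, 31 of them in 1 of 4 clusters.

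Jun, the main partner of FOS, had 2055, 3434, 3087 and 3126 CPM in mesenchymal-like cells, and suffix 1 was the lowest. Its levels were 1585 CPM in endothelial-like, 1061 in macrophage-like and 565 in Leydig-like cells, but 66.7 CPM (28.8 to 131) in lymphocyte-like cells, on 8 UMI. Junb had the opposite standing in lymphocyte-like cells: 1960 CPM (1718 to 2228), which overlapped the 1986 CPM of endothelial-like cells (1825 to 2156). In mesenchymal-like cells Junb was at 3240, 4184, 4229 and 4392 CPM. Suffix 4 had 2 lymphocyte-like cells, so the per-suffix levels of that class carry no weight.

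Jund was the least restricted member. Its mesenchymal-like level was 1032, 2021, 1979 and 1552 CPM, and its pooled 1677 CPM (1571 to 1788) overlapped the 1613 CPM of endothelial-like cells (1469 to 1768). Macrophage-like cells had 769 CPM, lymphocyte-like 667, Leydig-like 462 and myoid-like 458. Spermatogonia-like cells had 242 CPM and Sertoli-like cells 59 CPM, so that Jund alone made up most of the sum over the 10 genes in spermatogonia-like cells and in both spermatid classes.

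Egr1 had 951, 989, 1153 and 1282 CPM in mesenchymal-like cells, 826 CPM in endothelial-like, 353 in Leydig-like and 329 in macrophage-like cells, the last 2 with overlapping intervals. Ier2 had 1360, 2097, 1951 and 2115 CPM in mesenchymal-like cells and 868 CPM in endothelial-like cells. In Sertoli-like cells Ier2 was at 22.2 CPM (17.9 to 27.4), which overlapped its 17.4 CPM in spermatogonia-like cells (13.1 to 22.6).

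Atf3 and Dusp1 had another order, with macrophage-like cells first as a class. The Atf3 level was 375, 498, 408 and 484 CPM in macrophage-like cells, against 276, 272, 277 and 227 CPM in mesenchymal-like cells. Every suffix of the former was above every suffix of the latter. Dusp1 was at 902, 923, 1102 and 1125 CPM in macrophage-like cells and at 634, 793, 770.5 and 865 CPM in mesenchymal-like cells, again with no overlap between the suffixes. The order did not hold in every cluster. Dusp1 was at 712, 406, 1772 and 1853 CPM in the macrophage-like clusters, beside 929 and 623 CPM in the mesenchymal-like clusters. Atf3 was at 348, 144, 759 and 674 CPM in the same macrophage-like clusters, beside 288 and 229 CPM. From 4000 UMI per cell Dusp1 was at 488 CPM in macrophage-like and 1069 CPM in mesenchymal-like cells, on 24 and 8 cells. From 2000 to under 4000 UMI it was at 1314 and 798 CPM. The other feedback gene, Zfp36, had mesenchymal-like cells first in the pool, at 491, 869, 1075 and 1190 CPM in the suffixes. Its pooled interval there (896 to 1062) overlapped that of endothelial-like cells (724 to 939). In suffix 1 mesenchymal-like cells were below endothelial-like (736 CPM) and macrophage-like cells (593 CPM), and in suffix 2 below endothelial-like cells (949 CPM). In Leydig-like cells Atf3 was at 62.1 CPM and Zfp36 at 364 CPM.

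**Figure D2:**
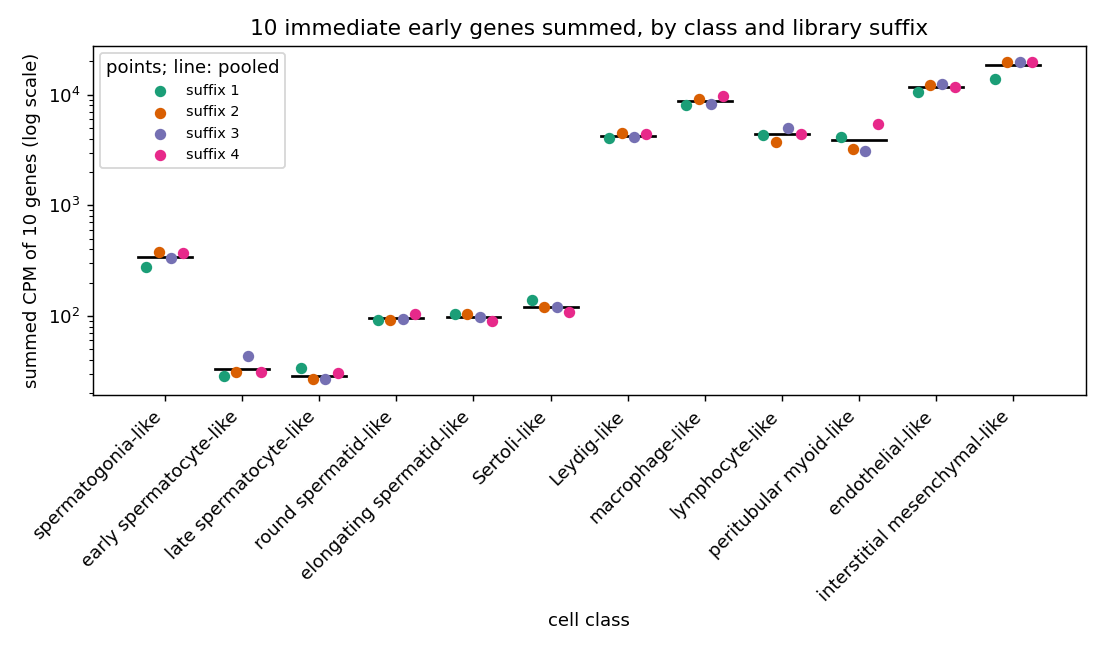
Summed CPM of the 10 genes (log axis) in each cell class; points are the 4 barcode suffixes and lines the pooled level. The 6 interstitial and wall classes lie between 3069 and 19875 CPM in every suffix, the other 6 classes between 26.8 and 378 CPM, and suffix 1 is the lowest point among mesenchymal-like cells.

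The spread between suffixes was set beside that of all genes with at least 100 UMI in 1 suffix of the class. In Leydig-like cells the highest suffix was 1.05 times the lowest for Jun and 1.29 times for Egr1, where the median over 1612 genes was 1.24. In mesenchymal-like cells suffix 1 was the lowest for 9 members, all but Atf3. All 9 had a ratio above the median of 1.3 over 260 genes, from 1.35 for Egr1. The ratio was 1.96 for Jund and 2.43 for Zfp36, and 1.92% of those genes had a larger ratio than Zfp36. The class consisted of 2 clusters, with summed levels of 22521 and 14712 CPM. Within the first, suffix 1 had 14931 CPM on 21 cells and the other suffixes between 23212 and 24450 CPM. Within the second, suffix 1 had 13279 CPM on 24 cells and the others between 14358 and 16678 CPM. The genotype of suffix 1 is not known.

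Somatic classes together, 5006 cells, were set against the 18594 cells of the germ classes. A gene was called when its pooled CPM differed at least 2-fold and in the same direction in every suffix used, and it was tested when it had at least 50 UMI over both sides. All 10 members were called higher in somatic cells, where 35.7% of 16712 genes tested were called higher. The median log2 ratio was 8.56 over the members and 0.25 over all genes tested. Fos was at 683, 668, 868 and 938 CPM in the somatic cells of the 4 suffixes and at 1.01, 0.73, 0.845 and 1.04 CPM in germ cells, a log2 ratio of 9.78 (9.54 to 10.03). Jund had the smallest ratio, 2.57 (2.52 to 2.62), from 422 against 70.9 CPM. Dusp1 had the next smallest, 5.17 (5.07 to 5.28).

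Other immediate early genes went mostly the same way: of 34 found, 26 were higher in somatic cells and 1 lower. Among them Socs3, a feedback inhibitor of cytokine signalling, was at 229 against 0.426 CPM, and Ier3 at 114 against 0.236 CPM. Nfkbia, the inhibitor of NF-kappa-B, was at 113 against 0.439 CPM, and the Myc proto-oncogene at 14.1 against 0.0197 CPM on 3 germ cell UMI. The gene called lower was Egr3, a relative of Egr1, at 1.24 against 5.04 CPM. Of 11 heat shock genes 10 were tested and 6 were higher, led by Hspb1 with 199 against 5.01 CPM. Of 18 upstream regulators and partners 16 were tested and 11 were higher; Zfp36l1, a relative of Zfp36, was at 248 against 9.02 CPM. The median log2 ratio was 5.02 for the other immediate early genes, 2.61 for the heat shock genes and 1.58 for the regulators. Of all genes tested, 35.7% were called higher in somatic cells and 15.1% lower.

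The 1286 cells from between the tubules and their wall were next set against the 3720 Sertoli-like cells, the somatic cells inside the tubule. All 10 members were called higher outside, where 34.7% of 11393 genes tested were called higher, and the median log2 ratio was 7.02 against 0.16 over all genes tested. Junb was at 1154, 1365, 1373 and 1395 CPM outside and at 15.4, 15.5, 17 and 11.4 CPM in Sertoli-like cells. Fosb had 4 UMI in all Sertoli-like cells together, and Atf3 also 4. The smallest ratios were those of Jund, 3.61 (3.42 to 3.81), and Ier2, 4.70 (4.39 to 5.02). Of the other immediate early genes 30 were tested and 29 were higher outside, among them Btg2, an antiproliferative gene, at 709 against 4.25 CPM and Socs3 at 417 against 0.5 CPM. Heat shock genes split evenly, with 4 higher and 4 lower, where 29.8% of all genes tested were called lower: Hspa1a, an inducible HSP70, was at 59.1 against 3.5 CPM, and Hspb1 at 55.8 against 373 CPM.

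Depth moved with the levels in some classes. Among cells with at least 1000 and under 2000 UMI the summed level was 19529 CPM in mesenchymal-like, 5365 in macrophage-like, 253 in Leydig-like and 118 CPM in Sertoli-like cells. In mesenchymal-like cells it was 18577 CPM from 2000 to under 4000 UMI, close to the value at the lower depth. In Leydig-like cells it was 349 CPM under 1000 UMI, 3102 CPM from 2000 to under 4000 UMI and 4698 CPM from 4000 UMI. A single cluster held the shallow Leydig-like cells: its 249 cells had a median of 933 UMI and 0.519% mitochondrial UMI and summed to 350.1 CPM, and its leading genes included Cyp11a1, the side chain cleavage enzyme of steroid synthesis. The other 3 Leydig-like clusters summed to 4044, 6175 and 2161 CPM, with 5.89% to 7.59% mitochondrial UMI. The shallow cluster was low in each suffix, between 263 and 453 CPM. The part of depth or of cell quality in this was not tested. The macrophage-like clusters differed too, with 3139 CPM in one whose median was 1019 UMI, 8190 CPM in the cluster led by Pf4 and Ccl8, and 12966 CPM in the cluster led by the antigen presentation genes Cd74 and H2-Eb1. In that last cluster Dusp1 reached 1772 CPM and Atf3 759 CPM, against 712 and 348 CPM in the cluster led by Pf4. Sertoli-like cells from 4000 UMI summed to 532 CPM, but there were 15 of them.

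**Figure D3:**
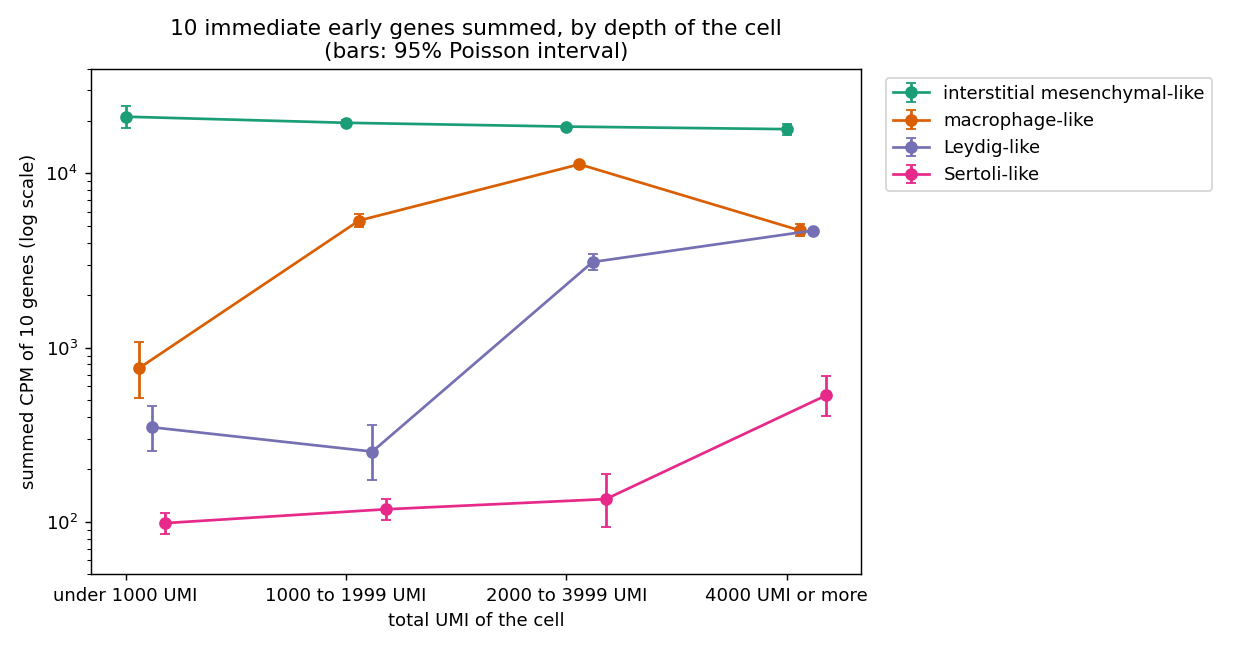
Summed CPM of the 10 genes (log axis) by total UMI of the cell, in 4 somatic classes; bars are 95% Poisson intervals. Mesenchymal-like cells lie between 17960 and 21173 CPM at each depth (the shallowest and deepest bins hold 10 and 8 cells). Leydig-like cells are at 349 CPM under 1000 UMI, 253 CPM from 1000 to under 2000 UMI and 4698 CPM from 4000 UMI.

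Single cells were compared after each was thinned to 1000 UMI, which left out shallower cells. Mesenchymal-like cells had a median of 7 of the 10 genes, macrophage-like and endothelial-like cells 5, and Leydig-like, lymphocyte-like and myoid-like cells 2. The share with at least 5 genes was 64.9% of 225 mesenchymal-like, 60% of 45 endothelial-like, 51.1% of 266 macrophage-like and 24.1% of 452 Leydig-like cells. No cell of the 1423 Sertoli-like cells or of any germ class had 5. Within mesenchymal-like cells 9.33% had none of the 10, and within Leydig-like cells 34.5%. Fos was detected in 71.6% (exact Clopper-Pearson interval at 95% 65.2 to 77.4%) of thinned mesenchymal-like cells, 39.2% (34.6 to 43.8%) of Leydig-like cells and 0.351% (0.114 to 0.818%) of Sertoli-like cells. Unthinned, these shares were 78.3%, 47.1% and 0.403%. The genes were found in the same cells: over the 90 ordered pairs of members, the second gene was detected more often in cells with the first than in cells without it, for all 90 pairs in mesenchymal-like, macrophage-like and Leydig-like cells alike. The median share of cells with the second gene was 79.2% against 32.9% in mesenchymal-like, 57.7% against 29.6% in macrophage-like and 44.9% against 17.8% in Leydig-like cells. Both orders of a pair always go in the same direction, so the ordered pairs count each pair of genes in both orders. Pairs also share the same cells and are not independent, and each class joins clusters of different levels.

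**Figure D4:**
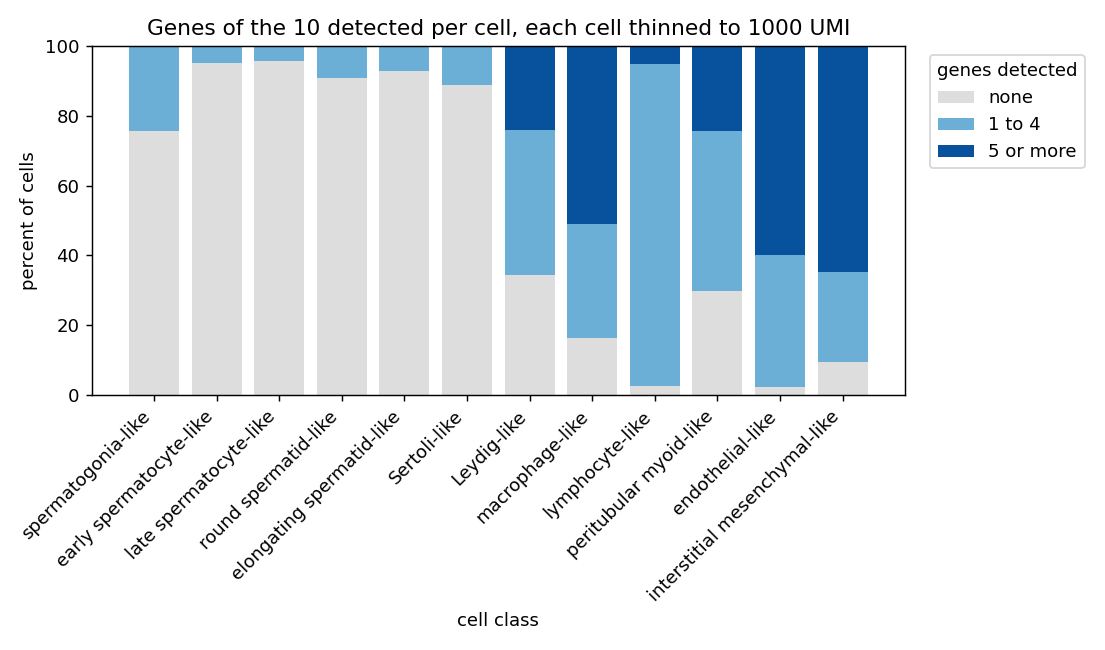
Percent of cells (bars stacked to 100) in which none, 1 to 4, or 5 or more of the 10 genes had a UMI, after each cell was thinned to 1000 UMI, by cell class. Cells with 5 or more make up 64.9% of mesenchymal-like and 24.1% of Leydig-like cells and are missing from the germ classes and Sertoli-like cells.

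In the germ line the members parted. Free RNA in the droplets can give low levels of a gene: Dcn, which marks mesenchymal cells, was at 0.359 to 0.936 CPM in spermatocyte-like and spermatid-like cells. Fos in the 4 later germ classes was at 1.06, 0.564, 0.698 and 0.395 CPM, close to Dcn. The part of free RNA in these values, and in those of other members at such levels, was not tested. In spermatogonia-like cells Fos had 11.5, 26.6, 17.9 and 16.8 CPM in the 4 suffixes. Dcn had no UMI there, but other markers did: Cd74 was at 16.4 CPM and C1qa at 1.9 CPM, and the summed markers were at 29.4 CPM for macrophages, 33.5 for Leydig cells and 58.2 for endothelial cells. In late spermatocyte-like cells the same sums were 2.77, 4.98 and 4.15 CPM. Cdh5, an endothelial marker, was at 0.316 CPM in spermatogonia-like cells, on 1 UMI. In endothelial-like cells it made up 446 of the 3694 CPM of these markers. The endothelial sum in spermatogonia-like cells may therefore not come from endothelial cells, which was not tested. The part of RNA from other cell types in the Fos level of spermatogonia-like cells was not tested either.

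From spermatogonia-like to early spermatocyte-like cells, 5 members were called lower, 2 were not called and 3 were not tested, where 38.4% of 11061 genes tested were called lower and 21.9% higher. The markers of these classes overlapped, so the step cannot be read as the entry into meiosis. The median log2 ratio was -3.73 over the 7 tested members and -0.50 over all genes tested. Jund fell from 213, 258, 248 and 255 CPM to 12.9, 15.8, 16.4 and 12.4 CPM, a log2 ratio of -4.08 (-4.30 to -3.87), or -3.58 relative to the median of all genes. The size of this difference moved with depth: as means over cells Jund was at 190.3 and 27.1 CPM, and among cells with at least 1000 and under 2000 UMI at 106 and 39.1 CPM. In that depth range Fos was at 5.28 and 4.89 CPM. All 10 genes together held 26 and 14 UMI in these cells, so the levels at that depth are imprecise and those of Fos cannot be compared. Fos, with a log2 ratio of -4.06, Ier2 with -3.73, Egr1 with -3.09 and Dusp1 with -4.34 were the others called lower. Summed markers of other cell types were lower too, at 3.37 against 29.4 CPM for macrophages, 7.3 against 33.5 for Leydig cells and 4.49 against 58.2 for endothelial cells. The endothelial marker Cdh5 alone was at 0.25 against 0.316 CPM, on 4 and 1 UMI. The part of RNA from other cell types in the fall was not tested. Egr1 and Dusp1 lost the call when suffix 2 or suffix 4 was left out, and Dusp1 without suffix 3, at log2 ratios from -4.88 to -2.57, because each then had under 50 UMI. As a mean over cells Egr1 was at -1.25 and not called. Jun was not called: it had 8.07, 10.3, 17.9 and 12 CPM in spermatogonia-like and 10.4, 11.4, 10.9 and 11.4 CPM in early spermatocyte-like cells. Junb, at 8.53 and 1.81 CPM, went the other way in suffix 3 and was not called. Of the other immediate early genes 15 were tested and 11 fell, among them Btg2 from 39.5 to 0.874 CPM. Of 13 regulators tested 8 fell, among them Tcf3 from 166 to 3.75 CPM and Zfp36l2 from 54.1 to 1.25 CPM, and 4 of 9 heat shock genes fell, among them Hspe1 from 785 to 57.2 CPM.

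Late against early spermatocyte-like cells, 4 members were tested and 6 were not. Junb (3.13 against 1.81 CPM) and Egr1 (1.49 against 1.56 CPM) did not keep the same direction in every suffix and were not called. Jund was called lower, at 6.46 against 14.3 CPM with a log2 ratio of -1.15 (-1.47 to -0.83), where 25.5% of 11398 genes tested were called lower and the median was -0.17. The suffix levels of Jund were 9.16, 6.06, 4.39 and 7.39 CPM in the later class and 12.9, 15.8, 16.4 and 12.4 CPM in the earlier. This call was lost without suffix 3, at a log2 ratio of -0.90, with a mitochondrial limit of 20% (-0.28), as a mean over cells (-0.72) and with classes gated by markers (-0.61). The 2 clusters of the later class differed, with 16.5 CPM of Jund in the shallower and 3.03 CPM in the deeper. Jun was at 16.3, 14, 13.4 and 15.7 CPM in late spermatocyte-like cells, above early spermatocyte-like cells in each suffix, but by less than 2-fold (log2 ratio 0.41). It was detected in 193 of 1212 late spermatocyte-like cells (15.9%, median 4789 UMI), and in 0.511% of Sertoli-like cells (median 924 UMI). With each cell thinned to 1000 UMI these were 1.17% (0.639 to 1.95%) and 0.773% (0.386 to 1.38%), with overlapping intervals. Per cell, Jun had 0.235 UMI in late spermatocyte-like and 0.00726 UMI in Sertoli-like cells. Atf3 had 0 UMI in the 1212 late spermatocyte-like cells, with a Clopper-Pearson interval up to 0.304% for the share of cells with a UMI. Of 11 other immediate early genes tested, 6 were higher, where 18.1% of all genes tested were, and 2 lower; Klf2, a zinc finger factor, was at 33.8 against 4.74 CPM. Srf, the factor that binds the CArG box, was at 28.9 against 8.74 CPM.

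From late spermatocyte-like to round spermatid-like cells Jund and Dusp1 rose while Jun and Junb fell. These were 2 members called higher, where 35.1% of 12998 genes tested were, and 2 called lower, where 33.4% were; Egr1 was not called and 5 members were not tested. Jund was at 66.3, 66.4, 66.1 and 74.4 CPM in round spermatid-like cells, a log2 ratio of 3.40 (3.15 to 3.68). Here too the size moved with depth, with Jund at 83.6 against 36.2 CPM among cells with at least 1000 and under 2000 UMI and at 73.2 against 16.5 CPM as means over cells. Dusp1 went from 0.859, 1.68, 1.65 and 2.17 CPM to 20.3, 18.8, 22.2 and 23.3 CPM, a log2 ratio of 3.68 (3.17 to 4.24). For both genes each suffix of the later class was above each of the earlier. Per cell, Dusp1 had 0.11 UMI in round spermatid-like, 0.0264 in late spermatocyte-like and 0.00618 in Sertoli-like cells. Jun went to 0.466, 1.22, 1.2 and 1.38 CPM, a log2 ratio of -3.78 (-4.33 to -3.27), and Junb from 3.13 to 0.637 CPM. Relative to the median of all genes tested, -0.31, the ratios were 3.72 for Jund and -3.47 for Jun. The 4 clusters of round spermatid-like cells differed in both rising genes: Jund was at 26.6, 66.9, 102 and 123 CPM and Dusp1, in the same order of clusters, at 8.38, 17.8, 51.6 and 7.55 CPM. The cluster with the most Dusp1 also held the 31 UMI of Fosb.

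Among the other immediate early genes 17 were tested in that step, and 11 rose and 2 fell. Nr4a1, an orphan nuclear receptor, went from 0.821 to 35.7 CPM, Dusp5, a relative of Dusp1, from 0.975 to 14.6 CPM, Dusp2 from 0.0513 to 8.68 CPM and Egr3 from 0.103 to 5.76 CPM. Of 11 regulators tested 4 rose and 2 fell: Batf, an AP-1 family protein, went from 0.0513 to 2.76 CPM. Heat shock genes split, with 4 higher and 4 lower. In this step 35.1% of all genes tested were called higher and 33.4% lower.

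Elongating against round spermatid-like cells, most genes were lower on the CPM scale: 67.7% of 13184 genes tested were called lower, 6.05% were called higher, and the median log2 ratio was -1.81. Of 7 members tested 3 were called lower. Dusp1, at 3.49, 3.3, 2.31 and 2.81 CPM against 20.3, 18.8, 22.2 and 23.3 CPM, had a log2 ratio of -2.84 (-3.06 to -2.63), or -1.03 relative to the median. Fosb (-1.36) and Jun (-1.22) were the others called lower, but relative to the median both turn to higher, by 0.45 and 0.60. Both were at or under 1.37 CPM in these classes, a level at which the part of free RNA was not tested. Jun lost the call in 7 alternatives, one of them without suffix 4, where it was at -1.15. Jund was not called: it had 97.2, 98.8, 92.5 and 81.9 CPM against 66.3, 66.4, 66.1 and 74.4 CPM, a log2 ratio of 0.43 (0.36 to 0.50), higher in every suffix and 2.24 above the median. The 6 elongating spermatid-like clusters had Jund at 18.2, 27.7, 34.9, 73.2, 162 and 177 CPM. In the cluster at 177 CPM, led by Faiml and Dcdc2c, Dusp1 was at 12.7 CPM, against 1.24 to 3.13 CPM in the other 5.

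Spermatid levels of Jund were also set beside those of Sertoli-like cells, which carried spermatid RNA. Jund was detected in 35.2% of elongating spermatid-like cells unthinned and 6.52% (6.03 to 7.04%) thinned, beside 5.81% unthinned and 5.34% (4.23 to 6.64%) thinned of Sertoli-like cells, so that the thinned shares overlap. Per cell, Jund had 0.795 UMI in elongating spermatid-like, 0.359 in round spermatid-like, 0.104 in late spermatocyte-like and 0.0634 in Sertoli-like cells. In CPM the interval of elongating spermatid-like cells (89.9 to 94.1) lay above that of Sertoli-like cells (51.7 to 67), and the interval of round spermatid-like cells (65.6 to 71.3) overlapped it.

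In the step to elongating spermatid-like cells 12 of 19 other immediate early genes tested were lower, among them Klf2 at 5.93 against 109.9 CPM, and 8 of 10 heat shock genes were lower, beside the 67.7% of all genes tested.

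**Figure D5:**
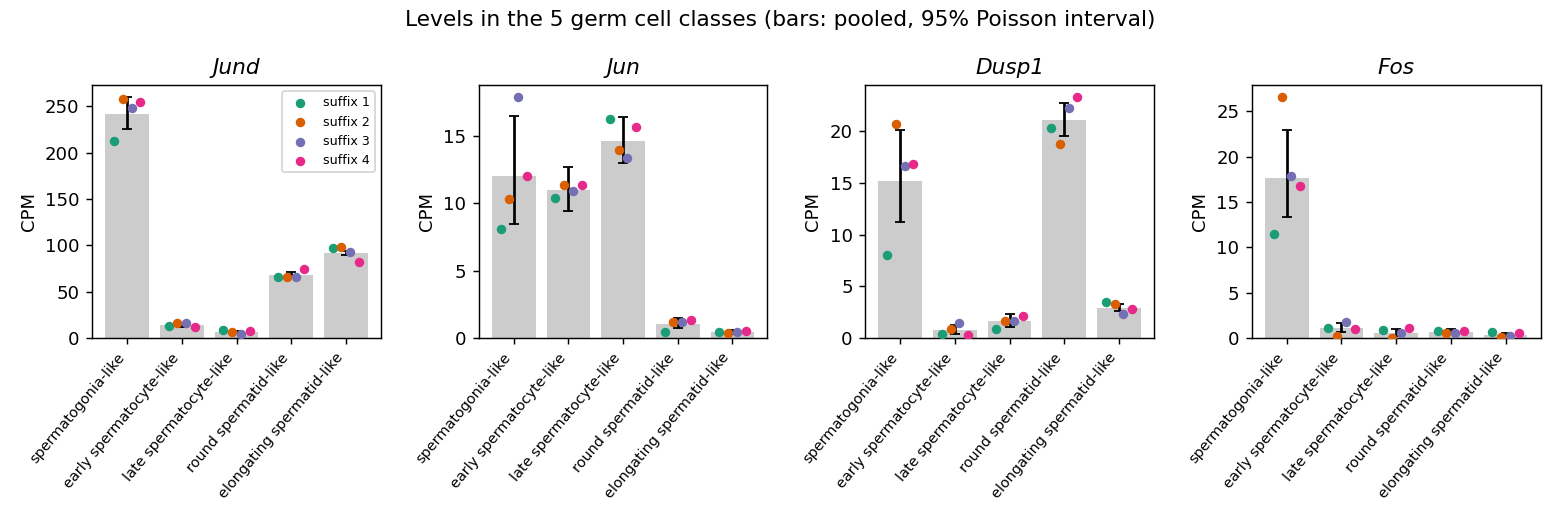
CPM of Jund, Jun, Dusp1 and Fos in the 5 germ cell classes; bars are pooled levels with 95% Poisson intervals and points the 4 barcode suffixes. Jund is high in spermatogonia-like cells, low in spermatocyte-like cells and higher again in both spermatid classes, Dusp1 peaks in round spermatid-like cells, Jun drops after late spermatocyte-like cells, and Fos is near 0 outside spermatogonia-like cells.

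The genes with patterns most like the members over the 12 classes were sought by Pearson's r of log2(CPM + 1) among 10376 genes. The classes share libraries and differ in depth, so r is a description over 12 points. Btg2 was among the 5 nearest genes of Fos (r = 0.98), Fosb (0.97), Jund (0.96), Egr1 (0.97), Dusp1 (0.97) and Zfp36 (0.97), and its highest level was 1476 CPM in endothelial-like cells. Socs3 was nearest to Jun (0.96) and Egr1 (0.98), and Klf6, a zinc finger factor, to Ier2 (0.98). The nearest to Junb was Mbnl1, a splicing regulator (0.99), which had its highest level in lymphocyte-like cells. Ahnak, a large scaffold protein gene outside the lists of immediate early genes, was among the nearest for Fos, Fosb, Junb, Atf3 and Dusp1. Between members the lowest r was 0.77, for Jun and Jund.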

How the data were processed

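The deposited matrix holds counts: per the file headers, whole UMI numbers for each gene and barcode, not normalised. Per the submitters' processing notes, Cell Ranger 3.0.2, bcl2fastq 2.19.1.403 and build mm10 were used. The sources used here do not give the annotation release. The 10 genes and the gene lists were chosen with earlier results of these data known. The edgeR test between genotypes was planned but not run, because no source ties a suffix to a sample.

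Cells needed at least 500 genes and no more than 10% mitochondrial UMI; 4 barcodes with over 10% haemoglobin UMI were also left out. Scrublet marked 1 of 29964 cells (0.00334%), so the caller did not work and doublets remain. Clustering in scanpy 1.11.5 used 2000 variable genes without the members, list genes and mitochondrial genes, 30 principal components, 15 neighbours and leidenalg 0.10.2 at resolution 1; interstitial clusters were pooled and clustered again. Clusters were named from 13 marker lists by mean z-score (at least 0.5, leading by 0.05, with at least 3 markers detected in at least 5% of cells). This rule was chosen with the clusters in view. Clusters with a median UMI under 0.5 of the overall median and no own marker leading, or with markers of a pair of lineages, stayed unnamed. Genes expressed together with the members stayed in the clustering, so classes are not fully independent of them.

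UMI were summed per class and divided by the class total (CPM). Intervals are exact Poisson for sums, Clopper-Pearson for shares and conditional binomial for ratios, at 95%. A side with 0 UMI was set to 3 counts, and suffixes with under 20 cells on a side were not used for direction. All 10 members were taken into each comparison, and the text gives the values of some of them. Of each list, names come from the 4 largest log2 ratios in the same direction in every suffix with at least 50 UMI. Egr3 in the somatic comparison was added after its value was seen. One listed gene, Cebpd, was not found. The text gives examples of the genes so named, and 1 of them is not reported here. The ratio step was tested on simulated data. Gene positions came from GENCODE on GRCm38. Alternatives were other cell filters, resolution, list genes allowed in clustering, high Scrublet scores left out, means over cells, equal class weights, marker gates in single cells, each suffix left out, thinning to 2000 UMI and, chosen after seeing the data, cells with at least 2000 UMI.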

Additional observations from a re-analysis of the deposited data

Results flagged for a closer look

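The barcodes left out of the comparisons also held the 10 genes. In the 2024 barcodes above the mitochondrial limit with at least 500 genes the summed level was 772 CPM (745 to 800.2), against 270.4 CPM over the cells kept. Interstitial markers were at 2899 CPM in those barcodes and 1086 CPM in the cells kept, and their part in the difference was not tested. In the 281 barcodes under 500 genes the sum was 125 CPM (84.1 to 178), on 30 UMI, with interstitial markers at 635 CPM.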

How the results depend on the processing

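The 10 members were called higher in somatic than in germ classes, and outside the tubule than in Sertoli-like cells, under all 13 alternatives. No call of a member reversed. From spermatogonia-like to early spermatocyte-like cells 5 members were called lower, and 3 without suffix 2 or without suffix 4; the range over the suffixes left out was 3 to 5. Late against early spermatocyte-like cells, 0 were called higher and 1 lower; 1 was higher and 0 lower with a mitochondrial limit of 20%, 3 higher and 0 lower with marker gates in single cells (among them Fos at a log2 ratio of 1.58, which at -0.91 was not tested in the clustered classes), 0 lower with means over cells, and 1 higher and 0 lower without suffix 3. The 3 members lower in elongating than in round spermatid-like cells became 1 with marker gates. Jun lost that call in 7 alternatives, at log2 ratios from -1.15 to -0.40. Fosb was called higher in round than in late spermatocyte-like cells in 5 alternatives, at 2.08 to 2.96, where it reached 50 UMI. The cause of the other changes was not tested. As means over cells, 46 of 120 levels moved beyond their interval, and the class with the highest level stayed the same for all 10 members. With cells thinned to 2000 UMI, 70 of 120 shares moved; Fos in Leydig-like cells went from 39.2% to 66%. Comparisons with early spermatocyte-like cells were not run with list genes allowed in clustering or with high Scrublet scores left out, since no cluster then took that name. No paired analysis was possible because no suffix is tied to a sample, so no replicate number could pair the genotypes, and their comparison with its alternatives was not run; the comparisons between classes take each direction within suffixes. In spermatocyte-like and spermatid-like cells most members had under 50 UMI per class, which limits their precision.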
